A study of Mus musculus with 24 samples.

Results

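The genes described here are 35 genes of neural progenitors and glia, taken by symbol from the table of normalized counts of 37315 genes. They were used to ask how fast the starting identity is lost when neural precursor cells (NPCs) are reprogrammed to induced pluripotent stem cells and whether interferon γ (IFNγ) alters that loss. The list names genes by their known roles and was not computed from measured values, but it was chosen with earlier results of these data known. All 35 were found, of which 33 had a mean above 10 normalized counts over the 24 libraries. They were read in 6 groups by role: 9 progenitor identity genes, 4 genes of the Notch pathway, 9 factors of glial fate, 4 proteins of radial glia and astrocytes, 6 receptors and matrix proteins, and 3 genes of the neuronal cytoskeleton.

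RNA was sequenced from 12 populations with 2 libraries each, all from a female hybrid mouse line (129S1/SvImJ and CAST/EiJ) called PaX. Every population carried the same alleles, namely a GFP reporter on the X chromosome (X-GFP) that reports X-chromosome reactivation, a truncated Tsix, a reporter of pluripotency, and a doxycycline-inducible cassette with the 4 reprogramming factors. Embryonic stem cells (ESCs) were grown in serum with LIF, and NPCs were made from them, grown with EGF and bFGF, and sorted as negative for SSEA1 and both reporters. The other 10 populations were NPCs reprogrammed with doxycycline on irradiated feeders, which were male mouse embryonic fibroblasts, either as control or with IFNγ (10 ng/ml) kept in the medium until day 5. They were collected at day 2 as cells free of the dye that marked the feeders, at day 5 as SSEA1-positive cells, and at day 7 as SSEA1-positive cells that were X-GFP negative, medium or high (the negative, medium and high gates), so that at day 7 IFNγ had been absent for 2 days. The line is 1 genetic background. The study's methods call the replicates independent without saying whether they were separate cultures. The p-values therefore measure the spread between these libraries, which may in part be technical. In bulk RNA, fewer cells of a type and less RNA per cell cannot be told apart.

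Neural stem cells of this kind hold their state through a small set of transcription factors, among them Pax6, Sox1, Lhx2 and the class III POU factors, and carry the intermediate filament nestin. Notch receptors on these cells bind Delta ligands on neighbors, and the cleaved receptor works with RBPJ to switch on Hes genes, which repress neuronal differentiation. Glial competence comes with Sox9 and the nuclear factor I proteins, oligodendrocyte fate with the Olig factors, Nkx2-2 and Sox10, and the radial glial form with the lipid carrier Fabp7 and the glutamate transporter Slc1a3.

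The libraries held 24746109 to 37056508 reads on genes. Normalized counts were summed over 7 pluripotency genes (Sall4, Prdm14, Esrrb, Nanog, Dppa5a, Dppa4 and Zfp42). The sum was far lower in NPCs (786 and 1186) than in ESCs (117920 and 126517). It did not rise at every step of the control route: the negative gate (20356 and 23226) lay below day 5 (24136 and 29095). The day 2 libraries also held reads of 4 Y-linked genes, which a female line lacks: their sum was 253 and 218 in control cells and 125 and 223 in IFNγ-treated cells, against 1.94 and 0 in NPCs and at most 12.5 in every library from day 5 on. A list of 12 fibroblast markers summed to 67882 and 47096 in day 2 control libraries and 34203 and 28872 with IFNγ, but also to 31080 and 43994 in NPCs, so the list is not particular to feeders.

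**Figure D1:**
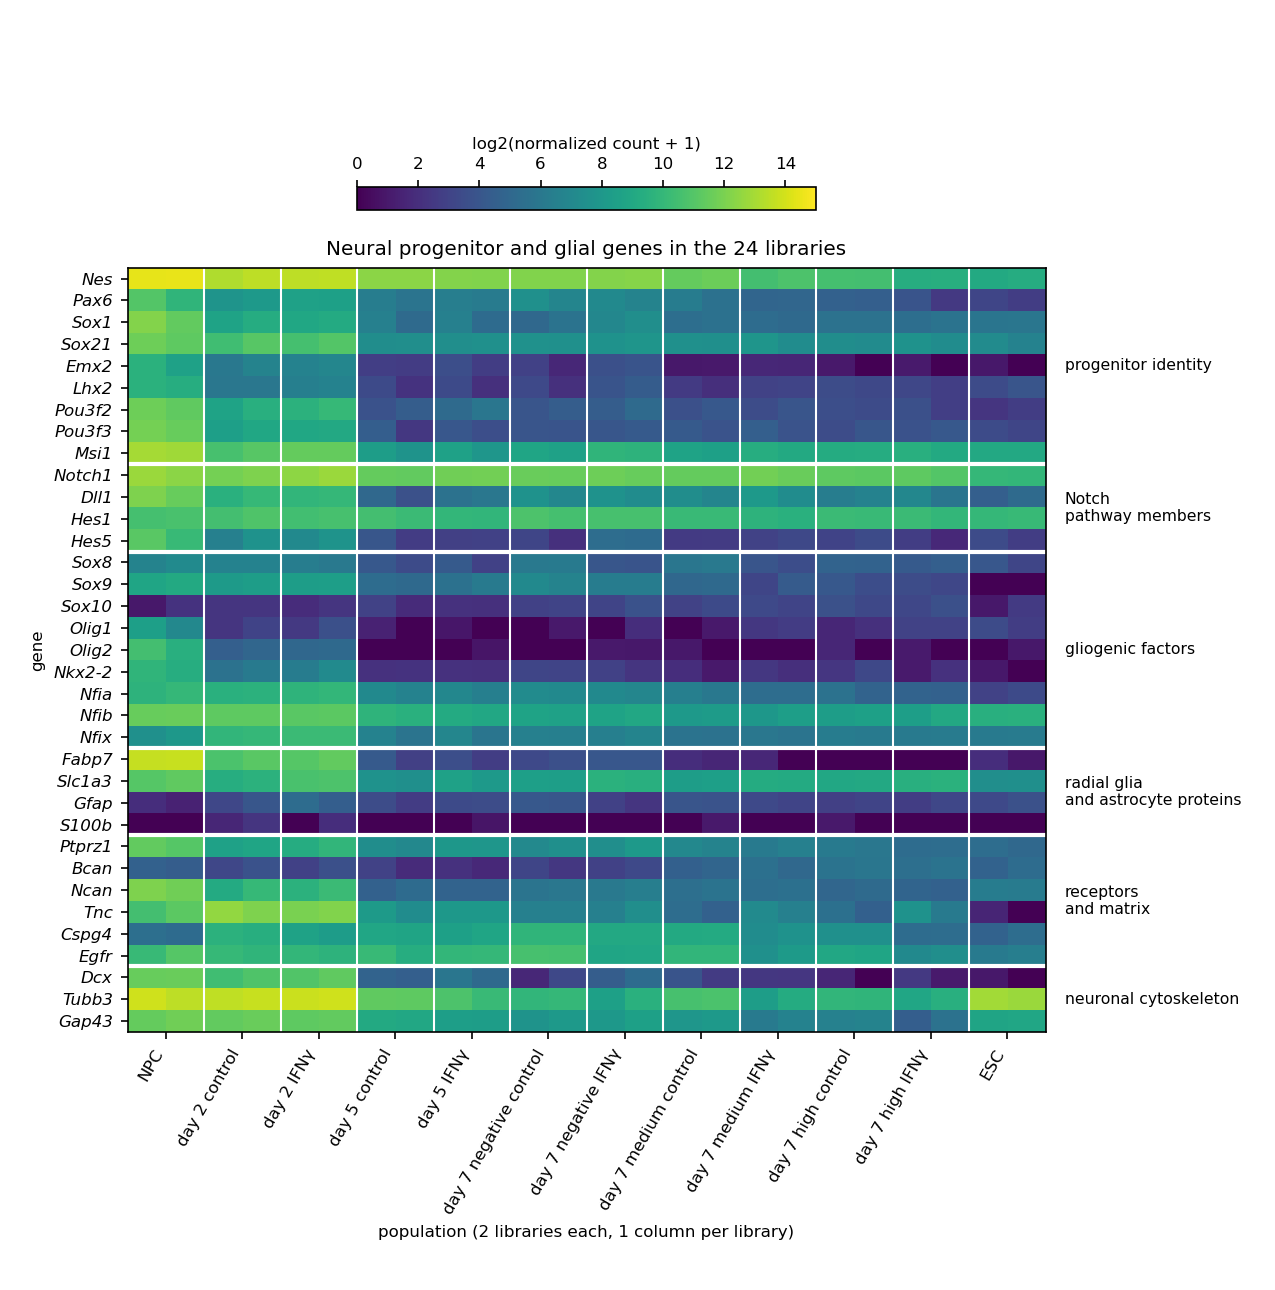
Heat map of log2(normalized count + 1) for the 35 genes (rows, grouped by role) in the 24 libraries (columns, 2 per population). Most rows turn from bright to dark between day 2 and day 5, while Notch1 and Hes1 stay bright throughout and Sox10, Gfap and S100b are dark in NPCs.

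NPCs held high levels of progenitor genes and few or no reads of the glial genes Gfap, S100b and Sox10. Per kilobase of exon the highest were Fabp7 at 10592 normalized counts per kb, Tubb3 at 7296 and Nes at 3520. Gfap, the astrocyte filament protein, reached 2.92 and 1.76 normalized counts in the 2 NPC libraries, S100b was at 0 in both, and Sox10, which marks the oligodendrocyte lineage, was at 0.972 and 3.51. Other glial genes, outside the 35, were present in NPCs: the glutamate transporter Slc1a2 was at 1960 and 1165, glutamine synthetase (Glul) at 6615 and 6082, and myelin basic protein (Mbp) at 475 and 323. S100b, with at most 3.97 normalized counts in any library, was tested in no comparison. The remaining 32 genes had NPC means of 22.3 to 22584. The 2 NPC libraries differed for several of them: Olig1 stood at 359 and 126, Olig2 at 1489 and 703, Pax6 at 1989 and 893, Hes5 at 2271 and 1110, and Egfr, the other way round, at 1089 and 2107.

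Promoters were available for 28 of the 35 genes as 36 windows of 300 bases (250 before to 50 after the transcription start; RefSeq, build GRCm38.p6). They were read for the RBPJ site of the Notch pathway (TGTGGGAA, both strands), because the Notch effector Hes5 is among the genes lost first. No window was available for Hes1, Sox9, Sox10, Olig1, Nfib, Gap43 or Msi1, so these genes were not read for the site. It was in 1 of the 36 windows, that of Hes5, against 1.86% of all 32851 windows. A count of 1 window does not set the genes read apart from all windows. That window is shown with the matches in capitals.
Hes5, chr4:154960673-154960972, plus strand: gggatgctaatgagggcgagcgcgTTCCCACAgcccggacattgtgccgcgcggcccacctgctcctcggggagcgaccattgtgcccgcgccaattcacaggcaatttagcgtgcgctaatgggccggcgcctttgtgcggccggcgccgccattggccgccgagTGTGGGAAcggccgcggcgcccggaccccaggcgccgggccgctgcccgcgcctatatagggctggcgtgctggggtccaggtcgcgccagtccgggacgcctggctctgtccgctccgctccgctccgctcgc
Hes5 held 2 matches, 1 on each strand, the first of them at position -226 counted from the transcription start. A match of these letters is a description of the sequence, and binding was not measured.

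Along the control route the neural genes were lost in steps. The gates of day 7 are sorted parts of the SSEA1-positive cells, and ESCs are the line from which the NPCs were made. Rises and falls between these populations are therefore differences between sorted cells, not changes followed in the same cells. The median gene had lost most of its NPC level by day 2, while on the log2 scale the larger step came between day 2 and day 5. Day 2 cells were not selected for SSEA1 and day 5 cells were, so time and sorting cannot be told apart in that step. Over the 32 genes with an NPC mean of at least 10, the median gene stood at 38.4% of its NPC mean at day 2, at 5.94% at day 5, at 6.47%, 4.95% and 2.69% in the negative, medium and high gates of day 7, and at 1.82% in ESCs. At day 2, 18 of the 32 were at 50% or less, against 17.0% of all genes with an NPC mean of at least 10. By then 5 had fallen to 10% or less of the NPC mean, a level reached by 1.64% of all 15096 genes with such an NPC mean; by day 5 it was 19 of 32, against 10.3% of all genes. In the negative, medium and high gates it was 19, 22 and 23, against 9.59%, 9.98% and 10.5% of all genes, and in ESCs 24, against 12.8%. Among IFNγ-treated cells it was 2 at day 2 (background 1.34%), 18 at day 5 (10.1%), and 19, 24 and 24 in the 3 gates (7.41%, 10.4% and 11.1%). The mean of log2(normalized count + 1) over the 35 genes was 9.73 ± 0.13 (SD, n = 2) in NPCs, 8.52 ± 0.24 at day 2, 5.69 ± 0.37 at day 5 and 4.67 ± 0.06 in ESCs.

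**Figure D2:**
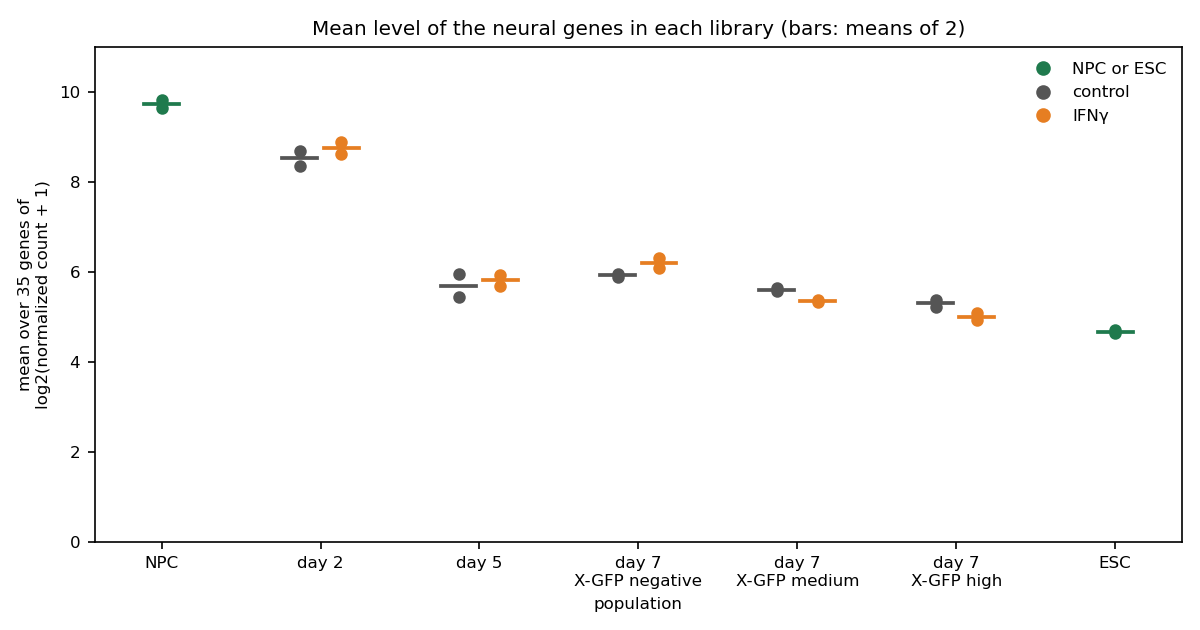
Mean over the 35 genes of log2(normalized count + 1) in each library (points) with the mean of each population (bars), for NPCs and ESCs (green), control cells (grey) and IFNγ-treated cells (orange). The drop from 8.52 at day 2 to 5.69 at day 5 in control cells is the largest step on this log2 scale. Day 5 cells were sorted for SSEA1 and day 2 cells were not. IFNγ-treated cells lie above control cells in the negative gate and below them in the medium and high gates.

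By limma on log2(normalized count + 1) at a Benjamini-Hochberg adjusted p under 0.1, 23 of the 32 genes tested were lower in day 2 control cells than in NPCs and 3 were higher, where 37.6% of all genes tested were lower and 31.6% higher. Between day 2 and day 5 control cells, 29 of 30 fell and none rose, where 35.6% of all genes tested fell and 34.9% rose. Of the genes tested between NPCs and day 2, Olig1 passed the filter on low values (a mean above 10) through the NPC libraries alone. Of the 29, Emx2, Lhx2, Olig2 and Nkx2-2 passed it through the day 2 libraries alone. No gene rose at an unadjusted p under 0.05 either, nor with edgeR or DESeq2 on the recovered reads. Between NPCs and ESCs 30 of 32 were lower and none higher, with background shares of 43.4% lower and 42.2% higher, and again none was higher at an unadjusted p under 0.05 or with edgeR or DESeq2. The 2 that did not pass between NPCs and ESCs were Bcan and Cspg4. Of the genes lower in ESCs, 13 had an ESC mean of 10 or less and passed the filter on low values through the NPC libraries alone.

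Among the progenitor identity genes, Nes, which encodes nestin (chromosome 3, 87971078 to 87980451, plus strand; build mm10), fell at every step of the route. It stood at 22302 and 22866 normalized counts in NPCs, 9423 and 11667 by day 2, 5339 and 5289 at day 5, 4602 and 4579 in the negative gate, 2857 and 3136 in the medium gate, 1552 and 1493 in the high gate and 558 and 620 in ESCs. The libraries of neighboring populations did not overlap at any of these steps, and each step passed the test, with log2 fold changes between -1.37 and -0.21. Msi1, the RNA-binding protein Musashi, fell early instead: it was at 7965 and 7292 in NPCs, 1594 and 2174 at day 2 and 321 and 210 at day 5, and then rose, to 600 and 623 in the high gate. Its rise from the medium to the high gate was 0.64 ± 0.09 (log2, SE, adjusted p = 1.66e-05), and it was at 525 and 539 in ESCs.

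The transcription factors of the group differed in when they fell. Lhx2 was the only one of the 9 at 10% or less of its NPC mean by day 2 (8.52%; 767 and 660 in NPCs, 60 and 62 at day 2). Emx2, Pax6, Sox1, Pou3f2 and Pou3f3 stood between 12.8% and 18.8% at day 2 and between 0.39% and 4.68% at day 5. Sox21 kept 61.2% at day 2, at 1353 and 2165 against 3255 and 2491 in NPCs, and then dropped to 166 in both day 5 libraries (log2 fold change -3.36 ± 0.21, adjusted p = 1.62e-05). It then stood at 195 and 182 in the negative gate and 162 and 153 in the high gate, and at 147 and 101 in ESCs. Pax6, the master regulator of forebrain and eye progenitors, was higher in the negative gate of day 7 (187 and 112) than in day 5 cells (82 and 53). The log2 fold change was 1.12 ± 0.30 (adjusted p = 0.0134). It was lower from gate to gate, at 25 and 22 in the high gate, and at 8 and 6 in ESCs, to the nearest count.

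In the Notch group, Hes1 stayed near its NPC level, Notch1 fell partway, and Dll1 and Hes5 fell to a few percent or less. Notch1 was at 6768 and 5477 in NPCs, 3708 and 4455 at day 2, 2793 and 2643 by day 5, and 2518 and 2425 by the high gate. It thus held 40.4% of the NPC mean in the high gate. In ESCs it was at 1005 and 963, 16.1% of the NPC mean (log2 fold change against the high gate -1.33 ± 0.06, adjusted p = 5.29e-10). Dll1, its Delta ligand, was at 4466 and 2890 in NPCs, 729 and 1038 at day 2 and 33 and 12 at day 5. In the negative gate it was higher than at day 5, at 197 and 122 (log2 fold change 2.88 ± 0.43, adjusted p = 0.000918). Hes1 stayed between 65.2% and 105% of its NPC mean in all control populations and ESCs, at 1557 and 1642 in NPCs and 997 and 1087 in ESCs. Hes5, the Hes gene tied to neural progenitors, fell to 92 and 196 at day 2 and to 15 and 5 at day 5, and no control library after that held more than 10 normalized counts of it.

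The factors of glial fate split by family. The oligodendrocyte factors went first: Olig2 was at 1489 and 703 in NPCs and at 22 and 30 at day 2 (log2 fold change -5.25 ± 0.37, adjusted p = 0.000145), and was at 0 in both day 5 control libraries. Against the level of 3 reads that stands for a count of 0 here, the fall from day 2 to day 5 was at least 9.3-fold. Olig1 and Nkx2-2 were at 2.27% and 7.68% of their NPC means at day 2. Nfib and Nfia still held 82.8% and 83.3% of their NPC means then. Nfib was at 2899 and 3065 in NPCs and 2462 and 2473 at day 2, a small fall that passed the test (-0.27 ± 0.07, adjusted p = 0.0162). Nfia was at 836 and 1008 and then 739 and 797, which did not pass. The larger fall came by day 5, when Nfib changed by -1.64 ± 0.09 and Nfia by -2.72 ± 0.18 on the log2 scale. Nfib was higher in ESCs (691 and 722) than in the high gate (323 and 368), with a log2 fold change of 1.03 ± 0.10 (adjusted p = 4.58e-07). Nfix rose at day 2, from 185 and 259 to 922 and 1005 (log2 fold change 2.13 ± 0.18, adjusted p = 0.000253), and was at 98 and 54 at day 5. Sox8 and Sox9 were both lower at day 5 than at day 2 and higher in the negative gate than at day 5. Sox8 was at 17 and 10 at day 5 and 66 and 71 in the negative gate, and Sox9 at 39 and 34 and then 136 and 105. Sox9 was at 0 in both ESC libraries.

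Of the radial glial proteins, Fabp7 was lost almost completely and Slc1a3 was not. Fabp7 was at 12990 and 13491 in NPCs, 1737 and 2246 at day 2, 18 and 6 at day 5 and 0 in both high-gate libraries. Its fall from NPCs to ESCs was at least 4664-fold, the widest of the 35 genes. Slc1a3, a gene on the minus strand of chromosome 15 (8634124 to 8710764), was at 2153 and 2635 in NPCs, 659 and 783 at day 2 and 199 and 178 at day 5. It was higher in the negative gate, at 352 and 340, and in the high gate, at 500 and 528, and was at 172 and 180 in ESCs. The rise from the medium to the high gate was 0.60 ± 0.09 (log2, SE; adjusted p = 5.33e-05).

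The receptors and matrix proteins moved in both directions. Ncan and Ptprz1, a matrix proteoglycan of the nervous system and a receptor phosphatase of radial glia, fell at day 2 and again at day 5. Ncan was at 4437 and 3384 in NPCs, 580 and 1045 at day 2 and 24 and 37 at day 5, and Ptprz1 at 2707 and 2107, 388 and 451, and 164 and 130. Cspg4 (NG2, a proteoglycan of oligodendrocyte precursors and pericytes; chromosome 9, 56865033 to 56899870, plus strand) was at 44 and 37 in NPCs, 788 and 682 at day 2 and 908 and 913 in the negative gate, and back at 26 and 40 in ESCs. Tnc, tenascin C, rose at day 2 from 1444 and 2353 to 6116 and 4364 and was at 283 and 157 at day 5. Egfr, the receptor for the EGF in the NPC medium (chromosome 11, 16752203 to 16918158, plus strand), was at 1089 and 2107 in NPCs. It was at 1608 and 1555 in the negative gate, 513 and 454 in the high gate and 73 and 83 in ESCs. The 3 genes that rose at day 2, Cspg4, Nfix and Tnc, did so in the libraries that held Y-linked reads. From day 5 on the Y-linked sum was at most 12.5. Control cells of day 5 held 465 and 430 of Cspg4, 98 and 54 of Nfix and 283 and 157 of Tnc. Those of the negative gate held 908 and 913 of Cspg4, 93 and 88 of Nfix and 91 and 90 of Tnc. The part of feeder RNA in the rises at day 2 was not tested. Bcan, a low gene, moved the other way, from 24 and 20 in NPCs to 7 and 3 at day 5 and 51 and 59 in the high gate.

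Of the genes of the neuronal cytoskeleton, Tubb3 and Gap43 stayed near their NPC levels at day 2, while Dcx stood at 53.6% of its NPC mean. Tubb3, a neuronal tubulin, was at 15529 and 11729 in NPCs and 12266 and 13654 at day 2, with overlapping libraries. It fell to 2618 and 2534 at day 5 and 920 and 884 in the high gate, and was at 7671 and 6901 in ESCs. That difference between ESCs and the high gate was the largest rise of any of the 35 genes over that step, 3.01 ± 0.06 on the log2 scale (adjusted p = 4.97e-13). Gap43, a protein of growth cones, kept the same order: it was at 2803 and 3482 in NPCs, 2726 and 3097 at day 2, 542 and 512 at day 5, 94 and 104 in the high gate and 428 and 471 in ESCs. Dcx, doublecortin, the only one of the 35 on the X chromosome, was at 2967 and 3105 in NPCs, 1354 and 1900 at day 2 and 27 and 22 at day 5, and at 0 and 1 in ESCs, to the nearest count.

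**Figure D3:**
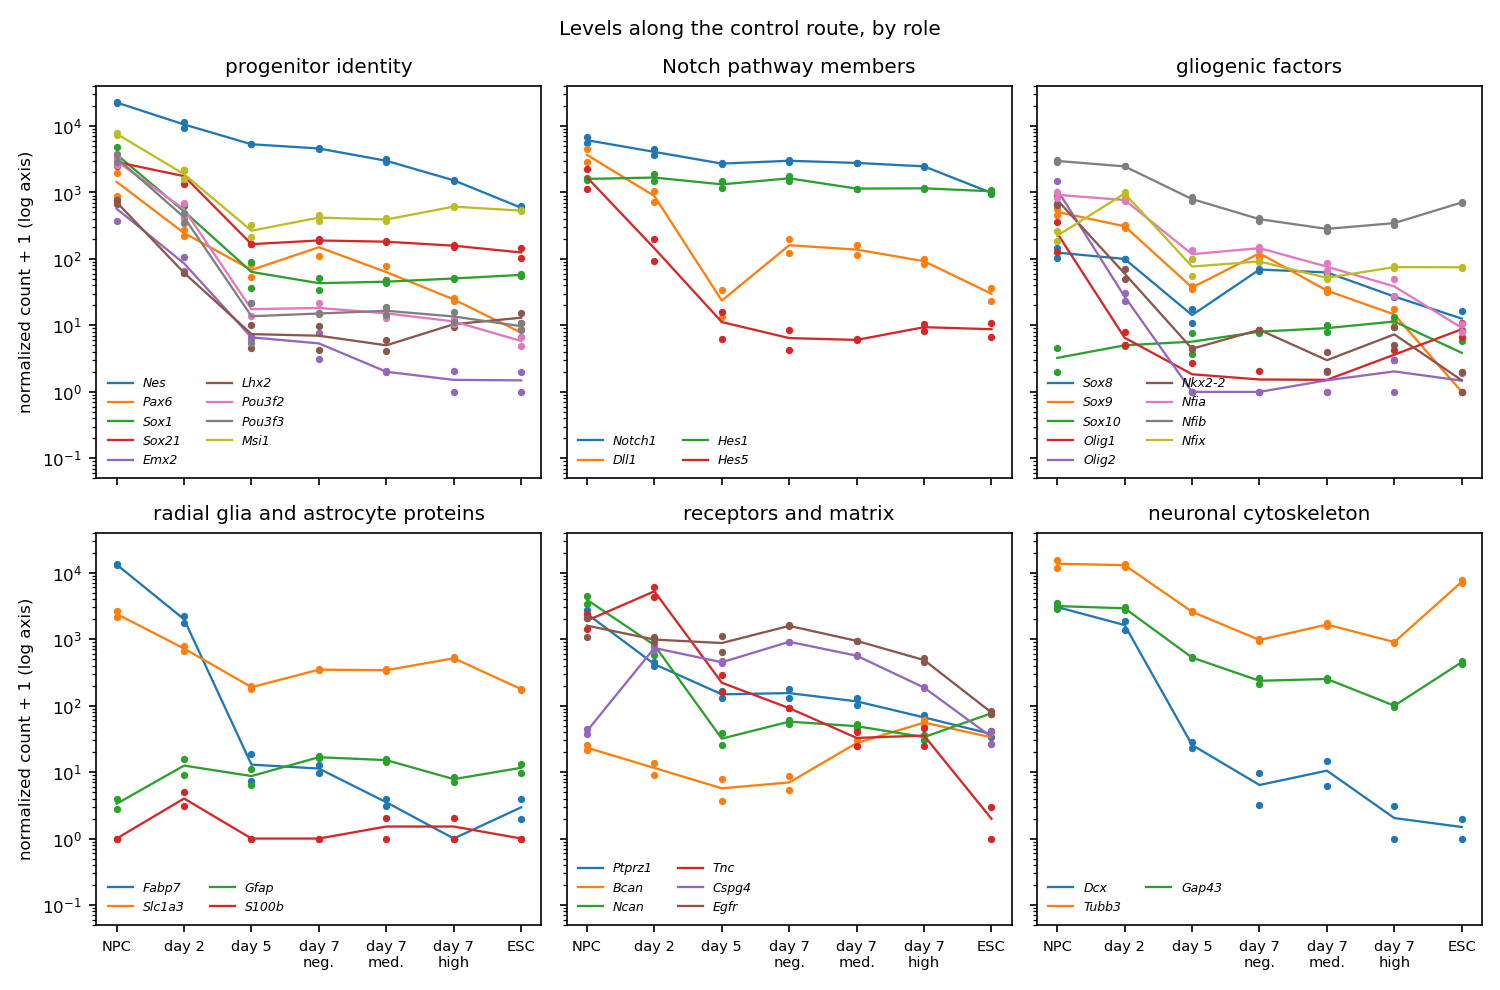
Normalized counts plus 1 (log axis) of the 35 genes in NPCs, control cells of day 2, day 5 and day 7 (X-GFP negative, medium and high) and ESCs, in 1 panel per role; points are libraries and lines join the means of 2. The Olig genes, Hes5 and Lhx2 drop by day 2. The neuronal genes Tubb3 and Gap43 drop between day 2 and day 5, and Dcx falls by day 2 and further by day 5. Neither Notch1 nor Hes1 falls below 963 in any library plotted.

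Within day 7 the remaining neural signal went down with rising X-GFP. From day 5 to the negative gate 11 of 26 genes tested rose and 6 fell (background 34.2% higher and 29.5% lower). Fewer rose when negative-gate control replicate 1 was left out. Of those tested, Gfap passed the filter on low values through the negative-gate libraries alone and Dcx through the day 5 libraries alone. From the negative to the medium gate 2 of 25 rose, Bcan and Tubb3, and 11 fell (background 21.9% and 25.2%). Bcan passed the filter through the medium-gate libraries alone. From the medium to the high gate 5 of 25 rose and 14 fell (background 31.4% and 32.7%). Of these 25, Gfap passed the filter through the medium-gate libraries alone. Those that rose in the last step were Msi1, Nfib, Nfix, Slc1a3 and Bcan. From the high gate to ESCs 4 of 23 rose, Tubb3, Gap43, Ncan and Nfib, and 15 fell (background 37.8% and 37.9%). Of those tested, Pax6, Pou3f3, Nfia and Tnc passed the filter through the high-gate libraries alone and Lhx2 through the ESC libraries alone. The populations of day 7 were sorted from the same cultures, and the sum of the 7 pluripotency genes rose over the same gates, from 20356 and 23226 in the negative gate to 85102 and 89262 in control cells of the high gate.

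Whether IFNγ alters the loss was asked at 5 stages, each with 2 libraries against 2. A rank or permutation test of a single gene could not go below p = 0.33 in this design, so the calls rest on limma, which shares the spread across all genes. IFNγ did not move the 35 genes as 1 group. At day 2 the genes called were mostly higher with IFNγ, at day 5 few differed, in the negative gate of day 7 as many were higher as lower, and in the medium and high gates more were lower than higher.

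At day 2, 6 of 31 genes tested were higher with IFNγ (19.4%; background 5.03%) and 1 was lower (3.23%; background 3.45%), and the median log2 fold change of those tested was 0.29, against 0.0054 for all genes. The count of higher genes was smaller without control replicate 1 or without IFNγ replicate 2. With no filter on low values it was 1 of 35, where 2.01% of all genes were higher. With the replicate number as a block it was 20, with 5 lower, where 16.9% of all genes were higher and 14.9% lower. The labels do not say that equal numbers pair the libraries. The largest was Slc1a3, at 1626 and 1783 with IFNγ against 659 and 783 without. It rose by 1.24 ± 0.10 on the log2 scale, which is 2.37-fold (adjusted p = 0.00122), and was called under all 11 alternative settings. The treated cells thus held 71.2% of the NPC mean of this transporter, against 30.1% in control cells. Ptprz1 was at 388 and 451 in control and 616 and 946 in treated cells (0.87 ± 0.20, adjusted p = 0.0676). Pax6 was at 217 and 272 and then 387 and 369 (0.64 ± 0.14, adjusted p = 0.0626). In both genes the libraries did not overlap, but the call was kept in 7 of 11 and 6 of 11 alternative settings.

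Notch1 was also higher at day 2, at 5492 and 6826 with IFNγ against 3708 and 4455 (0.59 ± 0.12, adjusted p = 0.0503), so that its treated mean, 6159, was the highest of any population and just above the 6122 of NPCs. Msi1 was at 2752 and 2820 against 1594 and 2174 (0.58 ± 0.14, adjusted p = 0.0703) and Nfix at 1186 and 1179 against 922 and 1005 (0.30 ± 0.07, adjusted p = 0.0838). Nfix kept its call in 3 of 11 alternative settings, Msi1 in 8 and Notch1 in 9. The only gene that fell was Cspg4, from 788 and 682 to 401 and 317 (-1.04 ± 0.14, adjusted p = 0.0111), in all 11 settings. Among the 12 fibroblast markers none rose and 5 fell at this stage (median -0.81 on the log2 scale), with none of the 12 at 0 in day 2 libraries, and the 4 Y-linked genes had a median of -0.53 with none called by limma and 1 lower at an unadjusted p under 0.05. The part of feeder RNA in these differences was not tested.

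Other genes did not pass at day 2 without that block, and passed with it, in spite of libraries that did not overlap. Pou3f2 was at 421 and 696 in control and 785 and 1044 in treated cells (0.74 ± 0.24, adjusted p = 0.156). Lhx2 was at 60 and 62 and then 90 and 98 (0.62 ± 0.19, adjusted p = 0.142). Dcx was at 1354 and 1900 and then 1929 and 2567 (0.47 ± 0.19, adjusted p = 0.221). Gfap, at 8 and 15 and then 38 and 22, was the highest of all populations in IFNγ-treated day 2 cells, with a log2 fold change of 1.31 ± 0.44 (adjusted p = 0.161).

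At day 5, 1 of 25 genes tested rose, Notch1 (4%; background 1.65%), and 1 fell, Gap43 (4%; background 0.535%). Notch1 was at 2793 and 2643 in control and 3486 and 3516 in treated cells (0.37 ± 0.07, adjusted p = 0.0864). Gap43 was at 542 and 512 and then 338 and 330 (-0.66 ± 0.12, adjusted p = 0.0678). Both groups of libraries were apart, but Notch1 kept its call in 7 and Gap43 in 6 of 11 alternative settings. Without a filter on low values neither was called. With all 24 libraries in 1 fit 5 of 25 genes rose and 3 fell, where 9.07% of all genes were higher and 7.15% lower. Slc1a3 was at 199 and 178 in control and 379 and 265 in treated cells (0.75 ± 0.20, adjusted p = 0.155). Tubb3 was at 2618 and 2534 and then 1773 and 1144 (-0.85 ± 0.19, adjusted p = 0.106). Neither passed. The change of the IFNγ effect from day 2 to day 5 passed for none of 31 genes tested with limma (background 0.202% higher and 0.474% lower; 2 higher and 4 lower at an unadjusted p under 0.05) and for none with edgeR, while DESeq2 called Cspg4 higher and Tubb3 lower. A difference between the 2 days was therefore not shown for Slc1a3, nor was its absence (-0.50 ± 0.24, adjusted p = 0.553).

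**Figure D4:**
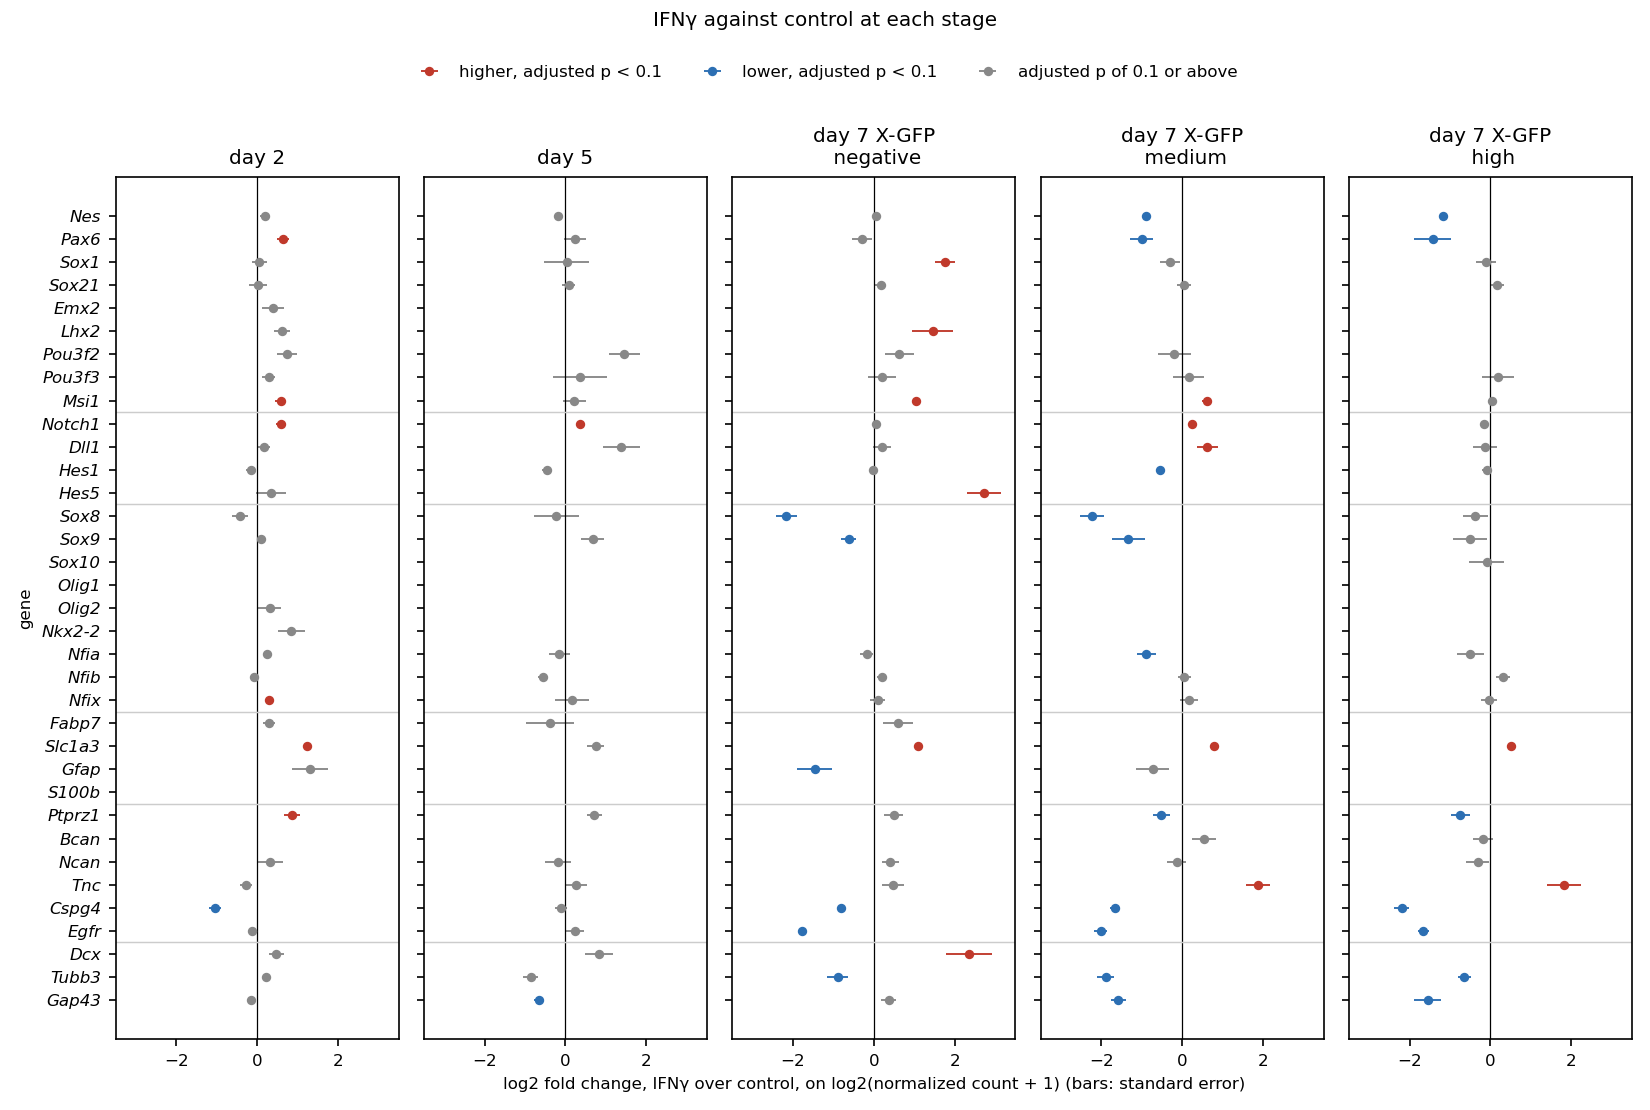
Log2 fold change of IFNγ-treated over control cells (x axis, on log2(normalized count + 1), bars are standard errors) for the 35 genes (y axis) at day 2, day 5 and in the 3 X-GFP gates of day 7; red and blue mark genes higher and lower at an adjusted p under 0.1, grey the others, and a gene with no point was not tested. Slc1a3 is to the right of 0 at all 5 stages and Egfr and Cspg4 are to the left in the 3 gates of day 7.

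In the negative gate of day 7, 6 of 28 genes tested were higher with IFNγ (21.4%; background 31.1%) and 6 lower (21.4%; background 30.8%). Rescaling every library to the same total, which moved the median log2 fold change of all genes from 0.0161 to 0.17, gave 15 higher and 5 lower of 27 (background 43.5% and 22.1%). Without IFNγ replicate 1 the count of higher genes was 12 of 28 (background 27.4%), and with the replicate block 12 of 28 (background 35.2%). Slc1a3 was at 352 and 340 in control and 764 and 713 in treated cells (1.09 ± 0.10, adjusted p = 2.23e-05). Msi1 was at 458 and 378 and then 917 and 817 (1.06 ± 0.12, adjusted p = 7.75e-05). Sox1 was at 33 and 52 and then 121 and 166 (1.76 ± 0.26, adjusted p = 0.00041). All 3 kept the call in all 11 settings. Hes5, Dcx and Lhx2 also rose but passed the filter on low values through the treated libraries alone. Hes5 went from 8 and 3 to 41 and 38 (2.73 ± 0.42, adjusted p = 0.000609), Dcx from 2 and 9 to 20 and 37 and Lhx2 from 9 and 3 to 14 and 20, to the nearest count.

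Of those that fell in the negative gate, Egfr went from 1608 and 1555 to 442 and 473 (-1.79 ± 0.08, adjusted p = 1.04e-06), which is 3.45-fold lower, and Tubb3 from 930 and 1012 to 365 and 743 (-0.90 ± 0.26, adjusted p = 0.0151). Cspg4 went from 908 and 913 to 521 and 524 (-0.80 ± 0.08, adjusted p = 6.03e-05). In none of these did the libraries overlap. Sox8, a glial factor of the Sox family, went from 66 and 71 to 15 and 14 (-2.17 ± 0.26, adjusted p = 0.000126). Sox9 and Gfap were the others, with Gfap, which passed the filter through the control libraries alone, at 16 and 15 and then 6 and 4. Nes, at 4602 and 4579 and then 4702 and 4895, differed by 0.06 ± 0.06 and did not pass (adjusted p = 0.388).

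In the medium gate 5 of 25 genes tested were higher with IFNγ (20.0%; background 33.3%) and 11 lower (44%; background 29.6%), with a median of -0.31 against 0.0439 for all genes. Egfr was at 934 and 948 in control and 186 and 289 in treated cells (-2.02 ± 0.17, adjusted p = 7.62e-06). Tubb3 was at 1591 and 1719 and then 327 and 605 (-1.89 ± 0.21, adjusted p = 5.37e-05). Cspg4 was at 552 and 573 and then 157 and 201 (-1.66 ± 0.13, adjusted p = 5.97e-06). All 3 were apart in every library. Nes joined them, at 2857 and 3136 and then 1476 and 1785 (-0.88 ± 0.09, adjusted p = 2.99e-05), as did Gap43, at 239 and 262 and then 69 and 100 (-1.57 ± 0.19, adjusted p = 8.05e-05), Sox8, Sox9, Pax6, Nfia, Hes1 and Ptprz1.

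The 5 that rose in the medium gate were Tnc, Slc1a3, Dll1, Msi1 and Notch1. Tnc was at 40 and 24 in control and 147 and 91 in treated cells (1.88 ± 0.30, adjusted p = 0.000527). Slc1a3 was at 328 and 352 and then 592 and 574 (0.78 ± 0.10, adjusted p = 0.000101). Msi1 was at 411 and 372 and then 653 and 548 (0.61 ± 0.11, adjusted p = 0.00115). Each of these 3 kept the call in all 11 settings. Dll1 (0.62 ± 0.26, adjusted p = 0.0638) had overlapping libraries and kept it in 7.

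In the high gate 2 of 24 genes tested were higher (8.33%; background 18.1%) and 7 lower (29.2%; background 20.4%). Tnc was at 45 and 23 and then 195 and 70 (1.81 ± 0.42, adjusted p = 0.00689). With 1 library left out its log2 fold change ran from 1.09 to 2.54, and with no filter on low values it was not called (adjusted p = 0.132). Slc1a3 was at 500 and 528 and then 705 and 755 (0.50 ± 0.10, adjusted p = 0.00245). Cspg4 went from 185 and 187 to 39 and 40 (-2.20 ± 0.19, adjusted p = 1.07e-05), where NPCs held 44 and 37 and ESCs 26 and 40. Egfr went from 513 and 454 to 137 and 169 (-1.66 ± 0.14, adjusted p = 9.54e-06). Nes went from 1552 and 1493 to 655 and 688 (-1.18 ± 0.08, adjusted p = 1.93e-06). The other 4 that fell were Gap43, Pax6, Ptprz1 and Tubb3, with Pax6, which passed the filter through the control libraries alone, at 25 and 22 and then 14 and 5. ESCs held 558 and 620 of Nes and 172 and 180 of Slc1a3, so the treated cells of this gate lay above the ESC libraries for both.

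**Figure D5:**
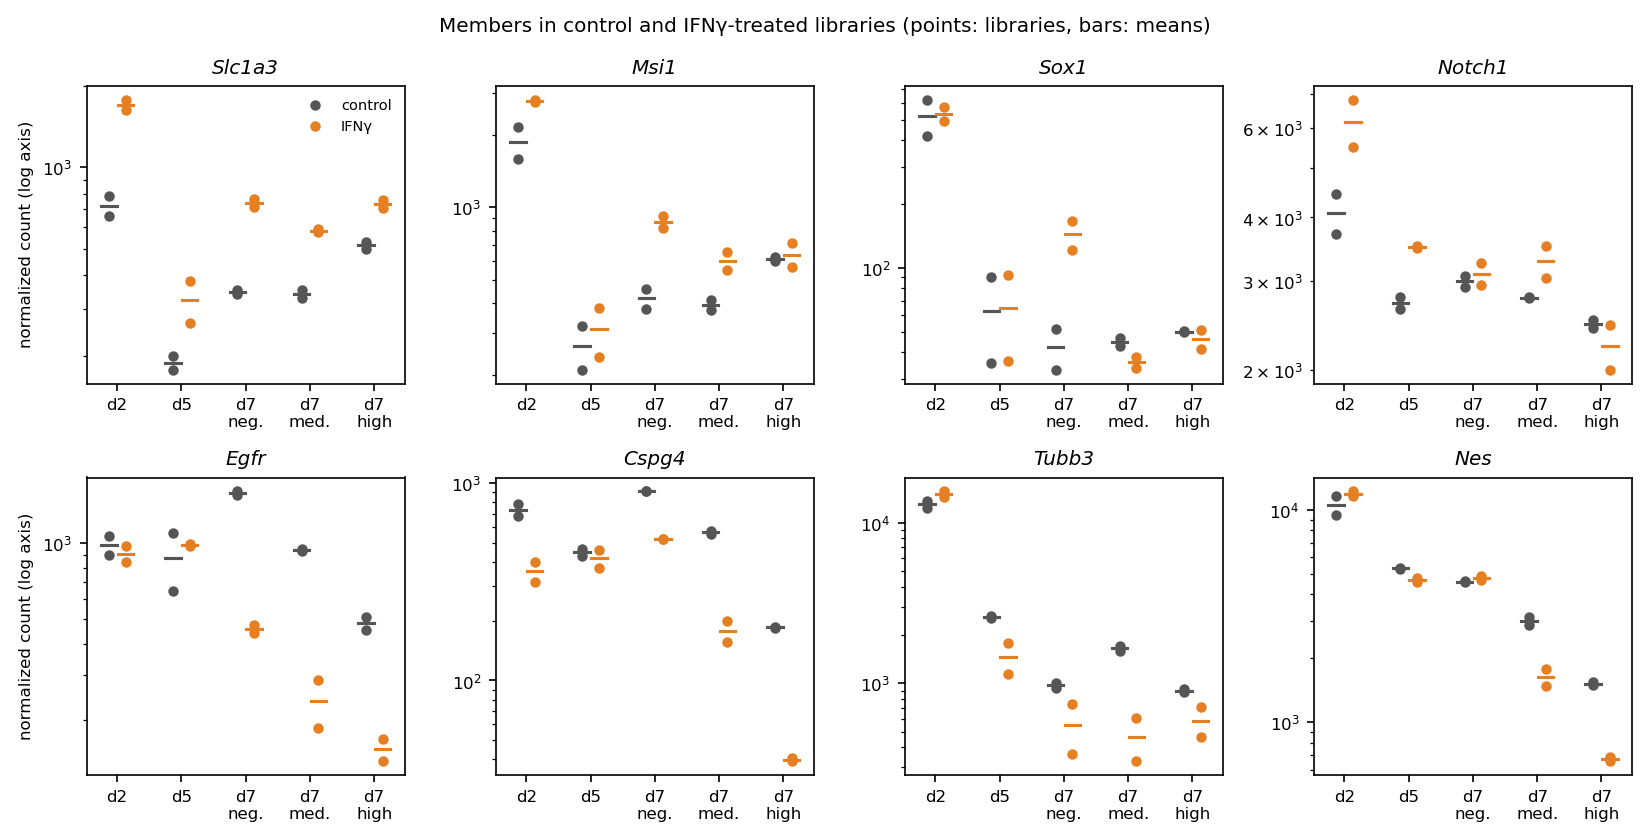
Normalized counts (log axis, scaled to each gene) of 8 genes in control (grey) and IFNγ-treated (orange) libraries at day 2, day 5 and in the negative, medium and high gates of day 7; points are libraries and bars means of 2. Slc1a3 is higher with IFNγ at each stage, Egfr and Cspg4 are lower in all 3 gates of day 7, and Nes is lower in the medium and high gates.

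Of the 22 genes tested at all 5 stages, Slc1a3 was the one whose treated libraries lay above the control libraries at each, and its test passed at 4 of them. Of all 13718 genes tested at the 5 stages, 455 (3.32%) had treated libraries above control at each, so 1 of 22 is near the background share. Treated libraries lay below control at all 5 stages for 0 of the 22 genes and for 653 of the 13718. The rise of Slc1a3 was 1.24 at day 2 and 0.50 in the high gate (log2 fold changes). The differences between neighboring gates did not pass (adjusted p = 0.144 from the negative to the medium gate and 0.212 from the medium to the high gate). Egfr showed no call at day 2 or day 5 while IFNγ was present (-0.12 ± 0.11 and 0.23 ± 0.23) and was lower in all 3 gates of day 7, after IFNγ had been withdrawn. Cspg4 was lower at day 2 and in all 3 gates but not at day 5 (465 and 430 against 373 and 459).

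The IFNγ effect differed between gates for some genes. From the negative to the medium gate it became more negative for 8 of 27 genes tested (background 8.36%) and more positive for 1, Tnc (background 7.31%). Nes showed this, with no call in the negative gate and a fall in the medium gate (difference -0.95 ± 0.12, adjusted p = 0.0018), as did Gap43 (-1.94 ± 0.30, adjusted p = 0.00447), Cspg4 (-0.86 ± 0.16, adjusted p = 0.00943) and Sox1 (-2.07 ± 0.36, adjusted p = 0.00721). Hes1, Hes5, Ptprz1 and Dcx were the others, of which Hes5 and Dcx had a mean above 10 in the negative gate in treated cells alone. With libraries rescaled to the same total the counts were 11 and 0, beside 2867 and 399 of all 15576 genes. The median over all genes moved from 0.0013 to -0.16. From the medium to the high gate it became more positive for 3 of 24, Sox8, Tubb3 and Hes1 (background 4.71%), and more negative for 1, Msi1 (background 8.06%).

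The fibroblast markers and the pluripotency genes moved with IFNγ in the same gates. The 12 fibroblast markers summed to 10586 and 8984 in control cells of the negative gate and 2466 and 2467 with IFNγ, to 10085 and 9020 and then 1780 and 1826 in the medium gate, and to 4971 and 4185 and then 1854 and 1656 in the high gate. Of the 9, 9 and 8 markers tested in the 3 gates, 2, 5 and 2 fell (22.2%, 55.6% and 25%) and 2, 3 and 1 rose (22.2%, 33.3% and 12.5%), beside background shares of 30.8%, 29.6% and 20.4% lower and 31.1%, 33.3% and 18.1% higher. At most 1 of the 12 was at 0 in both libraries of a population of day 7. The 2 that fell in the negative gate were Dcn, a matrix proteoglycan, from 4300 and 3801 to 219 and 287, and Fbln2, a matrix protein, from 5384 and 4403 to 1214 and 1276. These 2 made up most of the summed level there. The Y-linked sum was at most 12.5 in all of these libraries. Of the 7 pluripotency genes 6 rose with IFNγ in the negative, 7 in the medium and 6 in the high gate. The part of either in the changes of the neural genes was not tested, and a change within cells and a change of which cells fell into a gate cannot be told apart.

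Further genes of the same pathways were also called in both directions. The background shares for all of these lists were 5.03% higher and 3.45% lower at day 2, 1.65% and 0.535% at day 5, 31.1% and 30.8% in the negative, 33.3% and 29.6% in the medium and 18.1% and 20.4% in the high gate. Of 27 further genes of the Notch pathway (receptors, ligands, RBPJ cofactors, proteases and targets), 2 rose and 3 fell with IFNγ at day 2, 1 and 2 of 26 tested at day 5, 8 and 10 (30.8% and 38.5%) in the negative, 2 and 16 (7.69% and 61.5%) in the medium and 1 and 13 (3.85% and 50.0%) in the high gate. Rbpj, the DNA-binding partner of the cleaved receptor, rose by 0.35 at day 5 and by 0.18, 0.71 and 0.54 in the 3 gates of day 7 (log2 fold changes). Notch3, another receptor, rose by 0.43 at day 2. Jag2, a ligand, fell at all 5 stages, with log2 fold changes between -0.91 and -0.48. Of 20 further radial glial and neural stem cell genes, 2 rose and none fell at day 2, none of 19 tested was called at day 5 (limma; 0 higher and 1 lower at an unadjusted p under 0.05), and 7 rose and 6 fell in the negative gate. In the medium gate 3 of 17 rose and 7 fell (17.6% and 41.2%), and in the high gate 3 of 16 rose and 6 fell (18.8% and 37.5%). Among these, Vim, the filament protein vimentin, rose in the negative gate from 1007 and 874 to 4340 and 4672, and Cdh2, N-cadherin, from 100 and 97 to 593 and 756, where NPCs held 37743 and 43344 of Vim and 8250 and 7845 of Cdh2. In the same gate Hopx fell by 1.79 and Ntrk2 by 1.19 on the log2 scale.

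Of 16 further astrocyte and oligodendrocyte genes, 2 rose and none fell at day 2 (Aldh1l1 1.39 and Clu 0.61), 1 rose at day 5 (Apoe 1.13), and 6 and 5 of 13, 6 and 5 of 12, and 4 and 4 of 12 tested rose and fell in the 3 gates of day 7. Apoe, a lipid carrier of astrocytes, was itself a gene that rises along this route, from 223 and 206 in NPCs to 17148 and 16883 in ESCs, whereas Gpm6b, a myelin-related protein, fell by 0.98, 2.60 and 2.25 on the log2 scale in the 3 gates of day 7. Of 18 further neuronal genes none rose and 1 fell at day 2 (Nefl -0.61), none rose and 2 fell at day 5 (Nefl -1.31 and Map2 -0.46), and 5 and 5 of 13, 3 and 8 of 14, and 1 and 3 of 12 tested rose and fell in the 3 gates. Map2, a protein of dendrites, fell by 1.32, 2.30 and 1.98 in the 3 gates on the log2 scale.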

How the data were processed

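RNA of 24 libraries from 12 populations was sequenced as paired-end, strand-specific total RNA after removal of ribosomal RNA. Per the labels and the study's methods, the authors aligned reads with STAR to mm10 with the SNPs of both parental strains masked, counted them per gene with HTSeq 0.6.1 and deposited counts divided by DESeq2 size factors, here called normalized counts, which are the signal values in the table used. Gene symbols were matched to the Ensembl identifiers with GENCODE vM21, which held 95.2% of them. Every value was a whole multiple of what 1 read is worth in its library (100% within 0.01 read), so whole reads were recovered for the alternatives. They came to 24746109 to 37056508 reads per library. A count of 3 reads was taken as the level that a count of 0 allows, which covers counting error only. It was valued at the mean worth of a read over the libraries of both groups compared. A table of allele shares was not used, since it lists none of the 35 genes.

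The 35 genes and all other lists were chosen with earlier results of these data known. Each comparison was fitted with limma 3.58.1 (R 4.3.3; empirical Bayes with trend, two-sided) on log2(normalized count + 1), using only its own libraries and the genes with a mean above 10 in them, with Benjamini-Hochberg adjustment over all genes tested and a threshold of 0.1. Fold changes are on that scale, which understates those of low genes. Neighboring comparisons along the route share a population. The difference of an IFNγ effect between stages was tested as an interaction over 8 libraries. Alternatives were a pseudocount of 0.1, no filter, all libraries rescaled to the same total, 1 fit of all 24 libraries, the replicate number as a block, edgeR 4.0.16 and DESeq2 1.42.0 on the recovered reads, and each library left out. Values of every library are given for the 2 genes of each role with the highest NPC mean and, per IFNγ comparison, for up to 3 genes with the largest rise and 3 with the largest fall, where 1 group's mean reached 100 and the libraries were apart. Other genes were added for their roles after their values were seen. From each further list at most 2 risers and 2 fallers per comparison were taken by the same conditions. Simulated data with known changes were used to check the fit.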

Additional observations from a re-analysis of the deposited data

Results flagged for a closer look

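The IFNγ effect differed between X-GFP gates of day 7, by limma's test of the difference itself, for these genes. From the negative to the medium gate the log2 fold change of IFNγ over control changed by -3.20 for Dcx, -2.24 for Hes5, -2.07 for Sox1, -1.94 for Gap43, -1.01 for Ptprz1, -0.95 for Nes, -0.86 for Cspg4 and -0.53 for Hes1, and by 1.41 for Tnc. From the medium to the high gate it changed by -0.57 for Msi1 and by 1.86 for Sox8, 1.24 for Tubb3 and 0.44 for Hes1. The differences of Nes, Sox1, Cspg4 and Gap43 passed in all 15 alternative settings. The other differences, with that of Dcx, the largest, among them, passed in some alternatives and not in others. Tnc passed in 6 of 15, Hes5 in 7, Ptprz1 in 8, Msi1 in 7, Sox8 in 12 and Tubb3 in 8. Hes1 passed in 13 for the first step and 7 for the second. Hes5 and Dcx were near 0 in all populations of the gates other than IFNγ-treated cells of the negative gate.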

How the results depend on the processing

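None of the results tested turned its direction under any alternative, and of 411 summary values 310 stayed within their limits and 101 moved. Depth limits Sox10, Gfap, S100b, Olig1 and Bcan most, with few reads per library, and 2 libraries a group leave the spread of a gene to the model.

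The mean difference of the 35 genes from NPCs was -1.20 at day 2 control, -0.98 at day 2 IFNγ, -4.03 and -3.92 at day 5, -3.80 and -3.53 in the negative, -4.12 and -4.37 in the medium, -4.43 and -4.73 in the high gate (control and IFNγ) and -5.06 in ESCs (log2). As the median over genes the same differences were -1.69, -1.25, -5.75, -5.10, -4.50, -4.42, -5.45, -5.76, -5.84, -6.29 and -7.00. Rescaling gave -4.00 in negative-gate control cells, -4.24 and -4.51 in the medium gate, -4.84 in high-gate IFNγ cells and -5.17 in ESCs, and a pseudocount of 0.1 gave -3.99, -4.26 and -4.56 in the first 3 of these, -4.68 and -4.99 in high-gate control and IFNγ cells and -5.49 in ESCs. With 1 NPC library left out they ran from -1.29 to -1.11, -1.07 to -0.89, -4.12 to -3.94, -4.01 to -3.83, -3.89 to -3.71, -3.62 to -3.44, -4.21 to -4.03, -4.46 to -4.28, -4.52 to -4.34, -4.82 to -4.64 and -5.15 to -4.97.

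Counts of genes called changed as follows. Without a filter on low values, which tests more genes, those higher with IFNγ were 1 at day 2 (background 2.01%), 0 at day 5 (0.565%) and 1 in the high gate (6.85%). At day 5, 0 were lower (0.0295%). In the same setting 1 gene (Gfap) was higher in ESCs than in NPCs, beside 8270 of all 24256 genes. From NPCs to day 2 control 5 rose, beside 5964 of 23962. The changes of the IFNγ effect were 0 higher and 5 lower from the negative to the medium gate (all genes: 681 and 867 of 25605). From the medium to the high gate they were 1 and 0 (309 and 588 of 25833). Rescaling gave 15 higher in the negative gate (background 43.5%). In these 2 changes of the IFNγ effect it gave 0 higher in the first (399 of all 15576 genes) and 2 lower in the second (1273 of 15575). All 24 libraries in 1 fit gave 5 higher and 3 lower at day 5 (background 9.07% and 7.15%) and 3 higher in the medium gate (30.8%). From the medium to the high gate in control cells 3 were higher, beside 3979 of all 15516 genes. Changes of the IFNγ effect were 1 higher from day 2 to 5 (134 of 15837). They were 0 higher from the negative to the medium gate (629 of 15627) and 0 lower from the medium to the high gate (560 of 15623). DESeq2 gave 3 higher and 4 lower at day 5 (background 4.16% and 2.66%). From the medium to the high gate in control cells it gave 3 higher, beside 3825 of all 15516 genes. Its changes of the IFNγ effect were 1 higher and 1 lower from day 2 to 5 (121 and 139 of 13994). From the medium to the high gate it gave 1 higher (618 of 11988). For the change from the negative to the medium gate edgeR gave 0 higher (1125 of 15627). The cause was not tested.

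The replicate number as a block gave 20 higher and 5 lower at day 2, 7 and 4 at day 5, 12 higher in the negative gate and 4 lower in the change from the medium to the high gate. The labels do not say that the numbers pair the libraries, and the correlation of replicate differences was 0.406 at day 2, 0.363 at day 5, 0.187, 0.107 and 0.024 in the 3 gates and -0.146 between NPCs and day 2. A crossed pairing there, added after the data were seen, gave 3 higher and 25 lower against 3 and 23.

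With 1 library left out, where a lone library is assumed to vary like the others, the counts higher and lower ran from 2 to 7 and 1 to 2 at day 2, 0 to 2 and 0 to 4 at day 5, 5 to 12 and 4 to 6 in the negative, 4 to 7 and 8 to 11 in the medium and 2 to 3 and 5 to 10 in the high gate. They ran from 0 to 1 and 30 to 30 for ESCs against NPCs, 3 to 3 and 19 to 26 for day 2 against NPCs, 0 to 0 and 27 to 30 for day 5 against day 2, 6 to 15 and 6 to 7, 2 to 2 and 10 to 13, and 4 to 5 and 12 to 13 for the next 3 steps, and 4 to 4 and 11 to 14 for ESCs against the high gate. For the changes of the IFNγ effect they ran from 0 to 1 and 0 to 1, 0 to 2 and 4 to 11, and 0 to 3 and 0 to 3. At day 5 the calls of Notch1 and Gap43 were both lost without either control library and without IFNγ replicate 2. With 1 library left out their log2 fold changes ran from 0.33 to 0.41 for Notch1 and from -0.70 to -0.62 for Gap43.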
